A study of Mus musculus with 9 samples.

Results

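The 10 genes described here encode the growth factor Igf1, its receptor Igf1r, the insulin receptor Insr, the docking protein Irs1 and the binding proteins Igfbp2, Igfbp3, Igfbp4, Igfbp5, Igfbp6 and Igfbp7. They were taken by gene symbol from the 22609 genes in each count table. The RNA was that of tumors of 4T1, a mouse mammary carcinoma line classed as triple-negative, grown from 500000 injected cells at the orthotopic mammary site of BALB/c hosts. The mice had been fed for 6 weeks before injection, and until euthanasia, chow in which fat supplied 10% of the calories (LFD) or 60% (HFD). Vehicle, a 0.3% solution of hydroxy propyl cellulose, was given to the LFD and HFD groups, and a further HFD group (HFD + EC359) received EC359, an inhibitor of the LIF receptor, at 5 mg/kg intraperitoneally on 5 days per week. The labels give no vehicle for EC359 and no age for the mice. Each group had 3 libraries, all from 1 tumor cell line, and EC359 on LFD was not analysed here, so EC359 is described under HFD only.

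Insulin and the insulin-like growth factors act through related receptor tyrosine kinases, which phosphorylate docking proteins such as Irs1 and thereby activate PI3K, AKT and mTOR. The binding proteins hold IGF1 and IGF2 in the extracellular fluid, prolong their life and limit their access to the receptor, and proteases that cut the binding proteins release the growth factors. In mammary tumors the growth factor itself is known to come largely from stromal cells and the circulation, whereas the receptors are carried by the carcinoma cells as well.

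In these tumors Igf1 was higher and Igf1r and Igfbp4 were lower in both HFD groups than in LFD. Irs1, Igfbp3 and Igfbp7 were higher in HFD than in LFD and fell with EC359.

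Levels are given as CPM, the count of a gene scaled to the total of its library after TMM correction. Genes were compared with each other per kilobase of exon (RPKM), since a longer gene collects more reads. "Rose" and "fell" mark genes that passed edgeR's quasi-likelihood test, which means p under 0.01 once adjusted (Benjamini-Hochberg) over all 13366 genes that the filter on low counts let through. SE stands for the standard error that this model gives a log2 fold change. Of the 10 genes, 9 passed this filter and Igfbp2 did not. Errors of levels are SD over n = 3 libraries. The labels number the libraries of a group without saying whether each came from its own mouse. The p-values therefore measure the spread between these libraries, which may be smaller than that between mice. Because the RNA came from whole tumors, a lower value may reflect fewer cells of a type or less RNA per cell, and these cannot be told apart.

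The libraries held between 5085268 and 9750959 counts, so a count of 0 allows up to 0.308 to 0.59 CPM (3 counts, counting error only). LFD replicate 1 stood apart from its group, with a mean chi-square per gene of 3.19 and 2.59 against LFD replicates 2 and 3, where other pairs of the same group gave between 1.37 and 1.58. Counting error alone would give about 1 on this scale, so those other pairs differed by not much more than it. Genes of low GC content were lower relative to those of high GC content in the LFD group than in both HFD groups, by a log2 difference of -0.54 to -0.32 in LFD, 0.10 to 0.16 in HFD and 0.25 to 0.30 in HFD + EC359, each relative to the mean of all libraries. Summed RPKM of fixed marker lists also moved with the groups. For 10 fibroblast genes it was 1591 to 1880 in LFD, 2757 to 2907 in HFD and 814 to 835 in HFD + EC359, with 9 genes that rose with HFD and, with EC359, 6 that fell and 1 that rose. For 7 endothelial genes it was 65.8 to 70.8, 117 to 125 and 99.3 to 102, with 7 that rose with HFD and 5 that fell with EC359. For 8 macrophage genes found in the files it was 798 to 812, 793 to 809 and 999 to 1015, with 4 that rose and 2 that fell with HFD and 7 that rose with EC359. For 8 adipocyte genes it was 13.6 to 18.6, 38.0 to 41.9 and 36.8 to 42.3, with 2 of 6 tested that rose and 1 that fell with HFD, and 1 that rose with EC359. For 7 genes of epidermis found in the files it was 621 to 717, 84.0 to 89.1 and 278 to 282, with 5 that fell with HFD and 6 that rose with EC359. The 7 genes of the 4T1 epithelium summed to 687 to 700, 436 to 442 and 465 to 484 RPKM, with Cldn7 at or under 3 counts in all libraries, and of 5 tested, 5 fell with HFD and 3 rose with EC359. The 7 skeletal muscle genes summed to between 51.1 and 69.6 RPKM, and 2 rose and 1 fell with HFD and 1 rose and 2 fell with EC359. Of the 5 liver genes, Alb alone passed 3 counts in any library, the sum stayed at or under 0.846 RPKM and none was tested. The genes of the estrogen receptor, progesterone receptor and Erbb2 summed to between 16.5 and 23.2 RPKM in all 9 libraries, and of the 2 tested, 1 rose and 1 fell with HFD and 1 fell with EC359.

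Irs1, Igfbp3 and Igfbp7 passed the test in both HFD against LFD and HFD + EC359 against HFD, and Igfbp4 was the most abundant of the 10 genes. Igf1 and Igf1r also moved with HFD, but their windows are left out. The 250 bases before the start site of Irs1, Igfbp3, Igfbp7 and Igfbp4 are shown. They are RefSeq windows (table build GRCm38.p6) that were found once each in the mm9 genome, given 5′ to 3′ on the strand of the gene. RefSeq held windows for 9 of the 10 genes, 10 windows in all. Capitals mark matches, on either strand, to the TATA box (TATAAA) and the Sp1 motif (GGGCGG).
Irs1, chr1:82288015-82288264, minus strand: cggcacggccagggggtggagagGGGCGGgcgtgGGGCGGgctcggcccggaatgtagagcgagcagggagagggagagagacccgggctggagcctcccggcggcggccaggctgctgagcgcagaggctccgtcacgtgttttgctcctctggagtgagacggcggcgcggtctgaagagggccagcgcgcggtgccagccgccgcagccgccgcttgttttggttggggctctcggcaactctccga
Igfbp3, chr11:7113927-7114176, minus strand: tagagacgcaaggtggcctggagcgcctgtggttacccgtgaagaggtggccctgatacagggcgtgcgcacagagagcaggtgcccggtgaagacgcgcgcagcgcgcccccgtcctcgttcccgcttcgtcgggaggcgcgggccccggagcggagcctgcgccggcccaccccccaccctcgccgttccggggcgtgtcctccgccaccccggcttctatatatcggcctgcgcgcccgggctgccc
Igfbp7, chr5:77837071-77837320, minus strand: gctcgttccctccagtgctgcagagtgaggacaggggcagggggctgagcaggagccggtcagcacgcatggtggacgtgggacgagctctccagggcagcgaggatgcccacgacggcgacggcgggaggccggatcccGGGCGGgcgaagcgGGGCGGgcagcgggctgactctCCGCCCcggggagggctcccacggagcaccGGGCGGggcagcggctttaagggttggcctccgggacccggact
Igfbp4, chr11:98902308-98902557, plus strand: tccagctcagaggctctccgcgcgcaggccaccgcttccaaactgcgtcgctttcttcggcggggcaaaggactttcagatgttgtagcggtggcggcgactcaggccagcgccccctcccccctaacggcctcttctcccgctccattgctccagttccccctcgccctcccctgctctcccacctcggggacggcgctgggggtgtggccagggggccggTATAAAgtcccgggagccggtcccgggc
Irs1 held 2 matches to the Sp1 motif, Igfbp7 held 4, Igfbp4 held 1 to the TATA box, and Igfbp3 held none of either. Among the windows left out, Igf1r held 2 matches to the Sp1 motif, 1 window of Igfbp2 held 3, and Igfbp6 held 1 to the TATA box. Of 32851 RefSeq windows of this length, 32.7% held the Sp1 motif and 12.4% the TATA box. The STAT motif (TTCNNNGAA, in 7.02% of windows) and the FoxO motif (TGTTTAC, in 3.17%) had no match in any of the 10 windows. The AP-1 motif (TGANTCA, in 6.75% of windows) matched once each in a window of Igf1 and of Igfbp2, and CCAAT (in 33.9%) matched in those of Igf1 and Igfbp6. The windows differed in base composition, with 72.4% G or C in Irs1, 73.2% in Igfbp3, 74% in Igfbp7 and 69.2% in Igfbp4, against 52.8% in Igf1 and 49.6% in Igfbp6. A match is a description of the letters and not a bound site.

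HFD against LFD, both taken as vehicle-treated, asks what the diet did to the tumor. Of the 9 tested genes, Igf1, Irs1, Igfbp3 and Igfbp7 rose, Igf1r and Igfbp4 fell, and Insr, Igfbp5 and Igfbp6 did not pass. The 6 calls stand beside a background of 40.2% of all tested genes that passed (19.8% higher and 20.5% lower). Igf1 alone was over 2-fold, where 5.69% of all tested genes were (3.02% higher and 2.68% lower). The groups did not overlap in 8 of the 9 genes, against 57.1% of all tested genes. The median log2 fold change of the 9 genes was 0.13, against 0.007 for all tested genes.

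HFD + EC359 against HFD asks what the inhibitor did under HFD. Irs1, Igfbp3 and Igfbp7 fell, none of the 9 genes rose, and 6 did not pass. The 3 calls stand beside 17.3% of all tested genes (7.96% higher and 9.34% lower). None of the 9 was over 2-fold, and 3.46% of all tested genes were (2.08% higher and 1.38% lower). The groups did not overlap in 6 of the 9 genes, against 41.3% of all tested genes, and the median log2 fold change was -0.07, against 0.006. HFD + EC359 against LFD compares treated tumors on HFD with vehicle tumors on LFD. Igf1 rose, Igf1r, Igfbp4, Igfbp5 and Igfbp7 fell, and 4 did not pass, beside 47.8% of all tested genes (23.7% higher and 24.1% lower). Here 1 gene was over 2-fold (5.09% of all tested genes, 3.66% higher and 1.43% lower) and 5 did not overlap (62.9%). The 3 comparisons share libraries, so a gene that is high in the HFD libraries enters the first upward and the second downward.

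**Figure D1:**
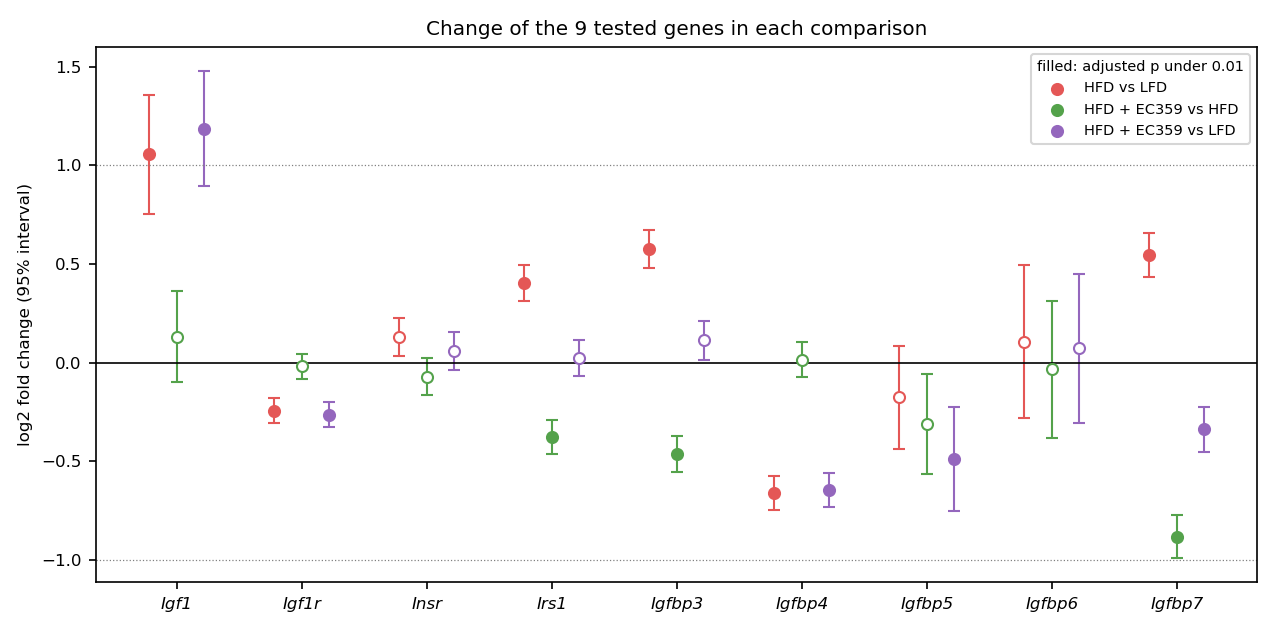
Log2 fold change (y axis) of the 9 tested genes (x axis) with its 95% interval for each pair of groups (colors), from edgeR's quasi-likelihood fit. Filled points passed the test, and dotted lines mark 2-fold. Irs1, Igfbp3 and Igfbp7 lie above 0 in the first comparison and below 0 in the second, and only Igf1 lies past a dotted line.

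The ligand Igf1 (mm9 chr10:87321801-87399792, plus strand, 6 exon blocks) was a low gene, with 31 to 72 counts in the LFD libraries, 123 to 146 in the HFD libraries and 165 to 199 with EC359. It measured 6.34, 11.3 and 7.75 CPM in LFD replicates 1, 2 and 3, and 18.4, 18.9 and 16.8 CPM in HFD. With EC359 it measured 20.0, 19.3 and 19.9 CPM. Every HFD library lay above every LFD library, and the EC359 libraries lay above all HFD libraries, by little. Igf1 rose from 8.47 ± 2.56 to 18.0 ± 1.10 CPM with HFD, by 1.06 on the log2 scale (SE 0.148, edgeR quasi-likelihood adjusted p = 4.07e-07). This fold exceeded that of 96.7% of all tested genes. With EC359 it was 19.7 ± 0.385 CPM and did not pass against HFD, with a log2 fold change of 0.13 (95% interval -0.10 to 0.36). Against LFD the EC359 group was higher by 1.19 on the log2 scale (SE 0.143, quasi-likelihood adjusted p = 1.35e-08).

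Igf1 has the lowest GC content of the 10 genes, 39.0%, and the 813 tested genes within 2 GC points of it had a median log2 fold change of 0.40 with HFD. After correction of each library for its GC and length trend, Igf1 rose by 0.62 (quasi-likelihood adjusted p = 0.000663) with HFD and by 0.65 in HFD + EC359 against LFD, and was no longer over 2-fold in either. Without LFD replicate 1 or 3 it rose with HFD by 0.90 or 0.98, again under 2-fold, and without LFD replicate 2 by 1.34. The summed endothelial markers (65.8 to 70.8, 117 to 125 and 99.3 to 102 RPKM in LFD, HFD and HFD + EC359) were also higher in both HFD groups. Of these 7 genes, 7 rose with HFD, but in EC359 against LFD 3 rose and 4 did not pass. The adipocyte sum (13.6 to 18.6, 38.0 to 41.9 and 36.8 to 42.3 RPKM) was higher in both HFD groups too, but Fabp4 carried most of it (9.69, 31.2 and 30.3 RPKM). Only Fabp4 and Cfd of the 6 tested adipocyte genes rose with HFD, Plin4 fell, Plin1, Cidec and Pparg did not pass, and Adipoq and Lep were too low to test. Of the 10 fibroblast genes, 9 rose with HFD, and in EC359 against LFD 3 rose, 4 fell and 3 did not pass. Of the 8 macrophage genes tested, 4 rose and 2 fell with HFD, and in EC359 against LFD 6 rose and 1 fell. The part of any of these lists in the level of Igf1 was not tested. The 3 genes whose centered log2 CPM ran closest to Igf1 over the 9 libraries, of 13365 compared, were Ptplad2, Lpar6 and Gbp6, at a root mean square difference of 0.0833, 0.106 and 0.107. Gbp6 is an interferon-induced GTPase and Lpar6 a receptor for lysophosphatidic acid. Ptplad2 had mean levels of 5.44, 12.3 and 13.5 CPM in LFD, HFD and HFD + EC359. The scatter of Igf1 within groups averaged 0.243 on the same scale, so the order of these 3 genes is within its error.

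**Figure D2:**
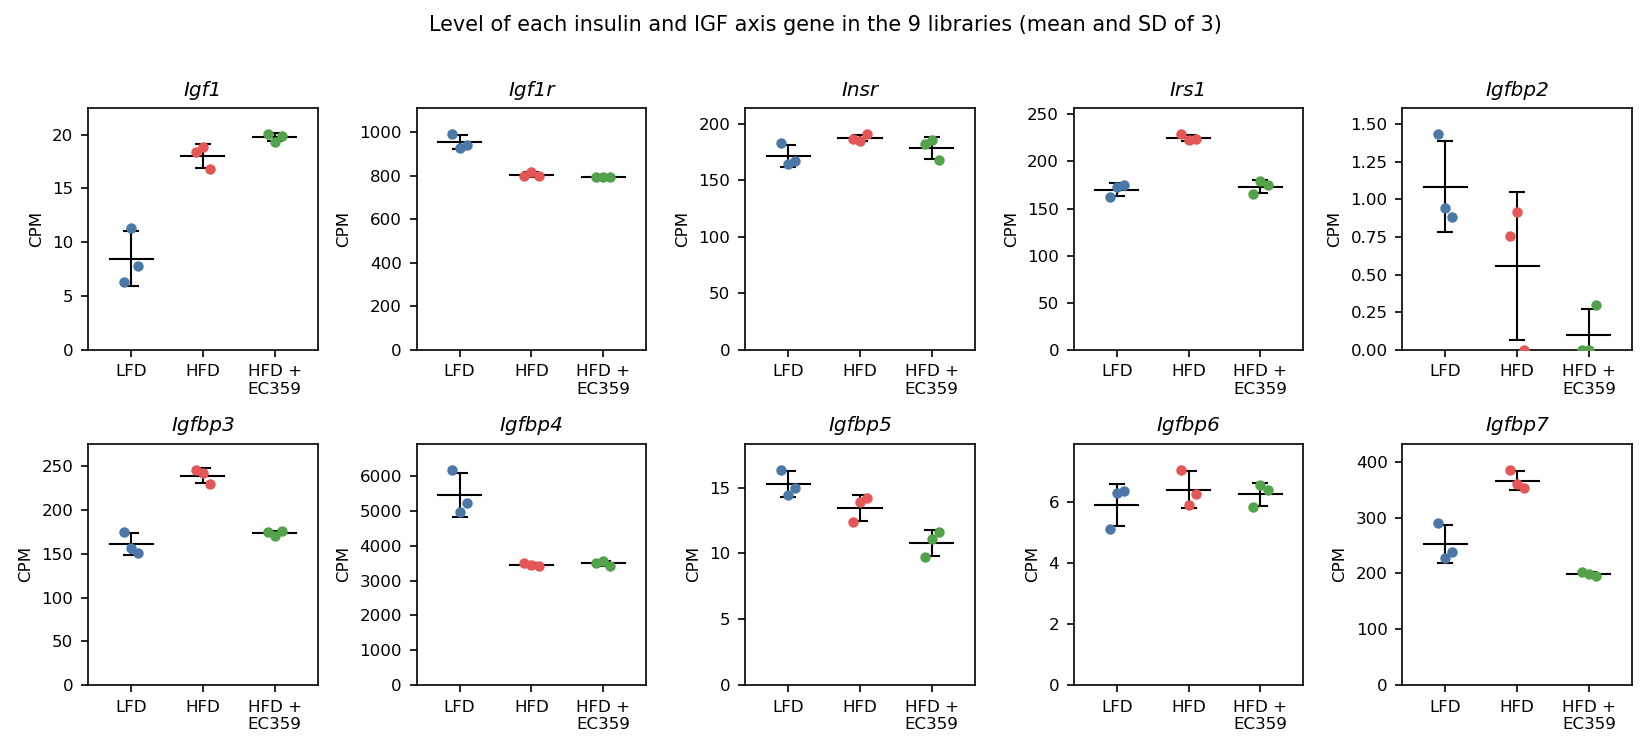
CPM (y axes, each from 0) of the 10 genes in each of the 9 libraries, by group (x axes), with a horizontal line at the mean and bars for the SD of 3 libraries. Igf1 is low in LFD and high in both HFD groups, Igfbp4 and Igf1r show the reverse, and Irs1, Igfbp3 and Igfbp7 are highest in HFD.

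Of the receptors, Igf1r (chr7:75097143-75378553, plus strand, 21 exon blocks), which binds IGF1 and IGF2 and drives growth and survival signaling, was the more abundant. It measured 990, 929 and 941 CPM in LFD, 797, 819 and 798 CPM in HFD, and 795, 794 and 793 CPM with EC359. The LFD libraries lay above all others, and the EC359 libraries lay just under the HFD libraries. Igf1r fell with HFD by 0.24 on the log2 scale, that is 1.18-fold (SE 0.0317, edgeR quasi-likelihood adjusted p = 1.02e-07). EC359 against HFD gave -0.02 (95% interval -0.08 to 0.04), and EC359 against LFD gave -0.26 (SE 0.0315, quasi-likelihood adjusted p = 1.26e-08).

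Insr (chr8:3150922-3279617, minus strand, 21 exon blocks), the receptor for insulin, measured 183, 164 and 167 CPM in LFD, 186, 185 and 191 CPM in HFD, and 182, 186 and 168 CPM with EC359. The HFD libraries lay above the LFD libraries by a small margin over LFD replicate 1, and the EC359 libraries overlapped both groups. No comparison passed, with log2 fold changes of 0.13 for HFD against LFD (95% interval 0.03 to 0.23, adjusted p = 0.0237), -0.07 for EC359 against HFD (-0.16 to 0.02) and 0.06 for EC359 against LFD (-0.04 to 0.16) in the quasi-likelihood fit. The first of these passed without LFD replicate 1 (0.18) and with library totals in place of the scaling factors (0.17), and became -0.04 after GC and length correction. Per length and without that correction, the ratio of Igf1r to Insr was 4.23 to 4.42 in LFD, 3.27 to 3.46 in HFD and 3.34 to 3.69 with EC359, so Igf1r exceeded Insr in every library and by less in both HFD groups. An exact permutation test of 3 against 3 libraries cannot give a two-sided p below 0.1, and ratios are therefore described without a test.

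The docking protein Irs1 (chr1:82229680-82288014, minus strand, 2 exon blocks), whose promoter is shown above, carries the signal of both receptors to PI3K. It measured 162, 173 and 175 CPM in LFD, 229, 223 and 224 CPM in HFD, and 166, 179 and 175 CPM with EC359. All 3 HFD libraries lay above the other 6, and the LFD and EC359 libraries overlapped. Irs1 rose with HFD from 170 ± 6.66 to 225 ± 3.12 CPM, by 0.40 on the log2 scale (SE 0.0444, edgeR quasi-likelihood adjusted p = 3.98e-09). With EC359 it fell by 0.38 on the log2 scale to 173 ± 6.82 CPM (SE 0.0421, quasi-likelihood adjusted p = 1.39e-08). EC359 against LFD gave 0.02, with a 95% interval of -0.07 to 0.12. Both calls held in all 19 alternatives, with 0.37 and -0.35 after GC and length correction.

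Among the binding proteins, Igfbp4 (chr11:98902574-98913957, plus strand, 4 exon blocks), which mostly holds IGFs away from the receptor until it is cut, was by far the most abundant. It measured 6194, 4973 and 5228 CPM in LFD, 3518, 3440 and 3412 CPM in HFD, and 3507, 3559 and 3419 CPM with EC359. Every LFD library lay above the other 6, with LFD replicate 1 highest, and the HFD and EC359 libraries overlapped. Igfbp4 fell with HFD from 5465 ± 644 to 3457 ± 54.8 CPM, by 0.66 on the log2 scale (SE 0.0427, edgeR quasi-likelihood adjusted p = 2.13e-14). EC359 against HFD gave 0.02 (95% interval -0.07 to 0.10), and EC359 against LFD gave -0.64 (SE 0.0426, quasi-likelihood adjusted p = 2.08e-14). Its GC content is 58.7%, the 1867 tested genes within 2 GC points had a median of -0.23 with HFD, and after GC and length correction Igfbp4 still fell, by 0.39. The 4T1 epithelium markers were also highest in LFD (687 to 700 summed RPKM, against 436 to 442 in HFD and 465 to 484 with EC359). Krt8 (332, 226 and 245 RPKM in LFD, HFD and HFD + EC359) and Krt18 (347, 209 and 217) carried most of this sum. Of the 5 tested genes, 5 fell with HFD. With EC359 Krt8 and Krt18 did not pass against HFD, and the other 3, Epcam, Cdh1 and Cldn4, rose over 2-fold. The summed RPKM of the 7 epidermis genes was highest in LFD too (621 to 717, against 84.0 to 89.1 in HFD and 278 to 282 with EC359). Of these, 5 fell with HFD and 6 rose with EC359 against HFD. The part of either list in the level of Igfbp4 was not tested.

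Igfbp3 (chr11:7106096-7113926, minus strand, 5 exon blocks), the main IGF carrier of the serum, measured 175, 157 and 151 CPM in LFD, 246, 242 and 230 CPM in HFD, and 175, 171 and 176 CPM with EC359. The HFD libraries lay above the other 6, and the LFD and EC359 libraries overlapped. Igfbp3 rose with HFD by 0.58 on the log2 scale (SE 0.0478, edgeR quasi-likelihood adjusted p = 8.48e-12) and fell with EC359 by 0.46 (SE 0.0449, quasi-likelihood adjusted p = 7.18e-10). EC359 against LFD gave 0.11 (95% interval 0.01 to 0.21) and did not pass (quasi-likelihood adjusted p = 0.0442). That difference passed with library totals (0.19), after GC and length correction (0.22) and without LFD replicate 1 (0.17).

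Igfbp7 (chr5:77778265-77837070, minus strand, 6 exon blocks), a low-affinity member also secreted by vessels and stromal cells, measured 291, 228 and 238 CPM in LFD, 386, 360 and 354 CPM in HFD, and 203, 199 and 195 CPM with EC359. The 3 groups did not overlap, with HFD highest and EC359 lowest. Igfbp7 rose with HFD from 252 ± 33.9 to 367 ± 17.2 CPM, by 0.55 on the log2 scale (SE 0.0544, edgeR quasi-likelihood adjusted p = 4.85e-10). It fell with EC359 by 0.88, that is 1.84-fold (SE 0.0532, quasi-likelihood adjusted p = 5.08e-15), and 2.02% of all tested genes had a lower fold change there. Against LFD the EC359 group fell by 0.34 (quasi-likelihood adjusted p = 4.95e-06). After GC and length correction these became 0.81, -0.85 and -0.04, and the last no longer passed (adjusted p = 0.551). The gene overlaps Polr2b on the other strand, and the counting used strand.

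The fibroblast markers (1591 to 1880, 2757 to 2907 and 814 to 835 summed RPKM in LFD, HFD and HFD + EC359) and the endothelial markers (65.8 to 70.8, 117 to 125 and 99.3 to 102) were also highest in HFD. Collagen genes carried most of the fibroblast sum, namely Col1a1 (896, 1462 and 343 RPKM), Col1a2 (372, 634 and 152) and Col3a1 (275, 541 and 137). Of the 10 fibroblast genes, 9 rose with HFD. With EC359 6 fell, 3 did not pass and Pdgfra rose (47.9, 55.6 and 70.6 RPKM in the 3 groups). The part of either list in the levels of Irs1, Igfbp3 and Igfbp7 was not tested.

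The other binding proteins were low. Igfbp5 (chr1:72904639-72921439, minus strand, 4 exon blocks), which binds IGFs and the matrix, measured 16.4, 14.4 and 15.0 CPM in LFD, 12.4, 13.9 and 14.2 CPM in HFD, and 9.70, 11.1 and 11.6 CPM with EC359. The groups did not overlap and stood in the order LFD, HFD, HFD + EC359, with HFD replicate 3 close under LFD replicate 2. Log2 fold changes were -0.18 (95% interval -0.44 to 0.09) for HFD against LFD and -0.31 (-0.57 to -0.06) for EC359 against HFD, with adjusted p of 0.26 and 0.0624 in edgeR's quasi-likelihood test. Igfbp5 fell in EC359 against LFD by 0.49 (SE 0.13, quasi-likelihood adjusted p = 0.0018), a call that was lost in DESeq2 (adjusted p = 0.0107), in counts thinned to the smallest library (0.0372) and without HFD + EC359 replicate 1 (0.0119).

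Igfbp6 (chr15:101974617-101979943, plus strand, 4 exon blocks), which prefers IGF2, measured 5.11 to 6.34 CPM in LFD, 5.89 to 7.06 CPM in HFD and 5.82 to 6.54 CPM with EC359, and all groups overlapped. Its 25 to 64 counts per library gave wide 95% intervals, -0.28 to 0.49 for HFD against LFD and -0.38 to 0.31 for EC359 against HFD on the log2 scale. Igfbp2 (chr1:72871077-72899045, plus strand, 4 exon blocks) lies close to Igfbp5 on the same chromosome and was almost silent, with 7, 6 and 5 counts in LFD, 6, 7 and 0 in HFD, and 0, 0 and 3 with EC359. The LFD and HFD libraries overlapped, and those with EC359 were below all LFD libraries. With the filter lifted to all 18249 genes with at least 1 count, its adjusted p was 0.287 for HFD against LFD, 0.0687 for EC359 against HFD and 0.000786 for EC359 against LFD in the quasi-likelihood test.

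Placed on 1 scale by RPKM, the 10 genes spanned Igfbp4 at 1673 ± 26.5 to Igfbp2 at 0.428 ± 0.376 in the HFD group. Between them stood Igfbp7 at 302 ± 14.2, Igfbp3 at 98.1 ± 3.54, Igf1r at 67.2 ± 1.01, Irs1 at 24.6 ± 0.341, Insr at 20.0 ± 0.312 and Igfbp6 at 4.97 ± 0.462 RPKM. Igf1 at 2.30 ± 0.141 and Igfbp5 at 2.30 ± 0.167 RPKM did not differ beyond their spread. In LFD the order changed in 2 places. Igf1r (79.6 ± 2.68) stood above Igfbp3 (66.0 ± 5.09), and Igfbp5 (2.61 ± 0.169) above Igf1 (1.08 ± 0.327), which did not differ beyond its spread from Igfbp2 (0.832 ± 0.232). Irs1 (18.6 ± 0.727) and Insr (18.3 ± 1.07) did not differ beyond their spread in LFD, nor did they with EC359 (18.9 ± 0.744 and 19.1 ± 1.01 RPKM). With EC359 Igf1 (2.52 ± 0.0493) stood above Igfbp5 (1.84 ± 0.167).

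The makeup of the 6 binding protein transcripts was then taken as a share of their summed RPKM. The sum was 2927 ± 344 RPKM in LFD, 2081 ± 44.2 in HFD and 1934 ± 35.3 with EC359. Igfbp4 made up 90.4%, 90.2% and 90.5% of it in the LFD libraries, 79.9%, 80.5% and 80.8% in HFD, and 87.4%, 87.7% and 87.3% with EC359. Igfbp7 made up 7.10% ± 0.12 in LFD, 14.5% ± 0.373 in HFD and 8.48% ± 0.119 with EC359, and Igfbp3 2.26% ± 0.129, 4.71% ± 0.098 and 3.69% ± 0.123. The groups did not overlap in any of these 3 shares, and HFD had the smallest share of Igfbp4 and the largest of Igfbp7 and Igfbp3. The RPKM of Igf1 amounted to 0.038% ± 0.015 of the summed binding protein RPKM in LFD, 0.111% ± 0.00586 in HFD and 0.131% ± 0.00444 with EC359. These are shares of RNA and say nothing of the amounts of protein or of their affinity for the growth factor. All were taken without GC and length correction. With that correction the rise of Igf1 with HFD went from 1.06 to 0.62 and the fall of Igfbp4 from 0.66 to 0.39 on the log2 scale.

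**Figure D3:**
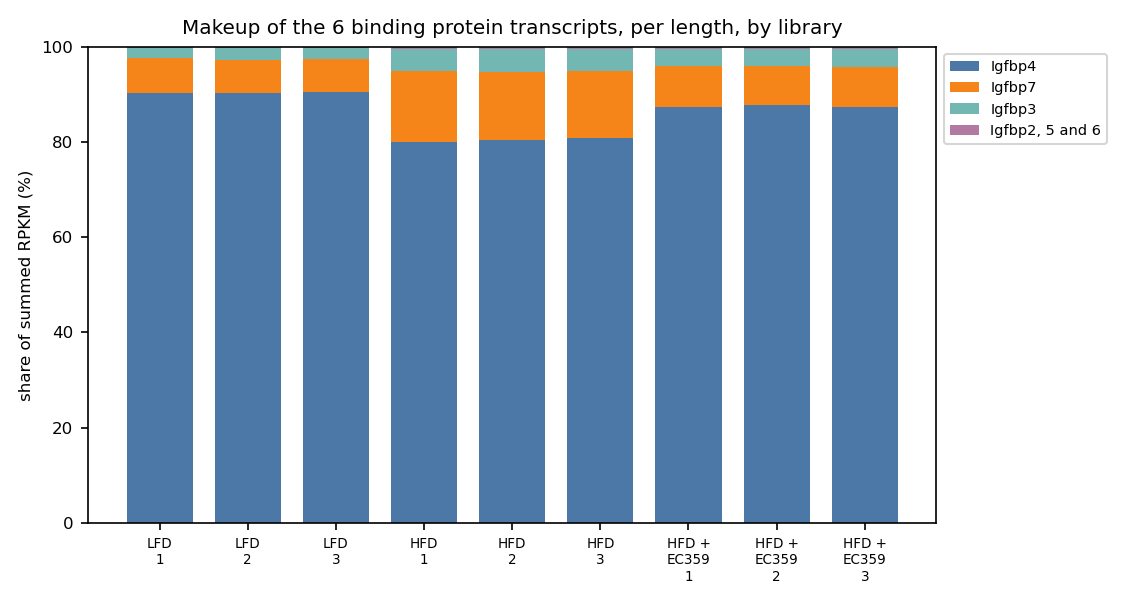
Share of the summed RPKM of Igfbp2 to Igfbp7 (y axis, percent) taken by each binding protein in each of the 9 libraries (x axis). Igfbp4 takes 90.2% to 90.5% in LFD, 79.9% to 80.8% in HFD and 87.3% to 87.7% with EC359, and Igfbp7 takes most of the remainder.

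The rest of the pathway was described from a list of 81 further genes sorted by role, of which 69 passed the filter. With HFD 19 rose and 16 fell, or 50.7% of those tested beside 40.2% of all genes, with a median log2 fold change of 0.01. With EC359 against HFD 5 rose and 14 fell, or 27.5% beside 17.3%, with a median of -0.03. These 19 calls became 12 without HFD + EC359 replicate 2. EC359 against LFD gave 21 that rose and 19 that fell, 58% beside 47.8%. Over 2-fold, 4 rose and 1 fell with HFD, 1 fell with EC359 against HFD, and 3 rose in EC359 against LFD. Of the other ligands, Ins1 and Ins2, the insulin genes, were at 0 in all 9 libraries. Igf2, the fetal growth factor of the family, measured 7.16, 7.85 and 7.58 CPM in LFD, 12.1, 10.3 and 12.8 CPM in HFD, and 8.25, 7.33 and 7.70 CPM with EC359. The HFD libraries lay above the other 6. Igf2 rose with HFD by 0.64 (SE 0.157, quasi-likelihood adjusted p = 0.00102) and fell with EC359 by 0.60 (SE 0.14, quasi-likelihood adjusted p = 0.00144) in edgeR's quasi-likelihood test. The fall with EC359 was lost in 4 of 19 alternatives, DESeq2, thinned counts, and without HFD replicate 3 or HFD + EC359 replicate 2, and the rise with HFD in DESeq2. An antisense gene, Igf2as, overlaps Igf2 on the other strand. Igf2r, which binds IGF2 and carries it to the lysosome, fell with HFD by 0.14 (adjusted p = 0.000634, lost with library totals, -0.10) and rose with EC359 by 0.28 (quasi-likelihood adjusted p = 2.75e-08), from 613 ± 8.95 to 746 ± 17.7 CPM. Insrr, the third receptor of the family, did not pass the filter, nor did Igfbp1, Igfals or Igfbpl1. Igfals, the partner of Igfbp3 in the serum complex, had a mean of 0.0545 RPKM over the 9 libraries, and Igfbp1 and Igfbpl1 were at 0.

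Of the 5 tested genes for proteases that cut binding proteins and for their inhibitors, 2 rose and 2 fell with HFD, and 3 fell with EC359. Pappa encodes pappalysin, which cuts IGFBP4 and thereby frees IGF, and it fell with HFD from 4.94 ± 0.545 to 2.23 ± 0.31 CPM (-1.15 on the log2 scale, SE 0.257, edgeR quasi-likelihood adjusted p = 0.000363). It had 24 to 35 counts in the LFD libraries and 16 to 19 in HFD, and the groups did not overlap. With EC359 it measured 3.80 ± 0.423 CPM, above all HFD libraries, and the log2 fold change of 0.77 did not pass (quasi-likelihood adjusted p = 0.0204). Stc1 encodes stanniocalcin, an inhibitor of pappalysin. It measured 26.6, 32.3 and 23.1 CPM in LFD, 117, 116 and 122 CPM in HFD, and 77.1, 75.6 and 67.5 CPM with EC359. The 3 groups were well separated. Stc1 rose 4.29-fold with HFD (SE 0.0799, quasi-likelihood adjusted p = 1.49e-20), and fell with EC359 by 0.69 (SE 0.0616, quasi-likelihood adjusted p = 1e-10), so that the EC359 group stayed above LFD by 1.41 (quasi-likelihood adjusted p = 1.67e-15). Per length, Stc1 stood at 15.4 to 17.3 times Pappa in the LFD libraries, 138 to 171 times in HFD and 51.9 to 64.6 times with EC359.

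Adam12, a protease that cuts IGFBP3 and IGFBP5, measured 14.1, 17.9 and 13.6 CPM in LFD, 31.0, 32.7 and 33.5 CPM in HFD, and 13.5, 15.9 and 14.0 CPM with EC359. The HFD libraries lay above the other 6, which overlapped. Adam12 rose with HFD by 1.08 (SE 0.111, quasi-likelihood adjusted p = 1.04e-09) and fell with EC359 by 1.16 (SE 0.102, quasi-likelihood adjusted p = 6.02e-11) in edgeR's quasi-likelihood test. EC359 against LFD gave -0.08 and did not pass (adjusted p = 0.583). Both calls held in all 19 alternatives, and the smallest rise with HFD among them was 0.998, just under 2-fold.

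**Figure D4:**
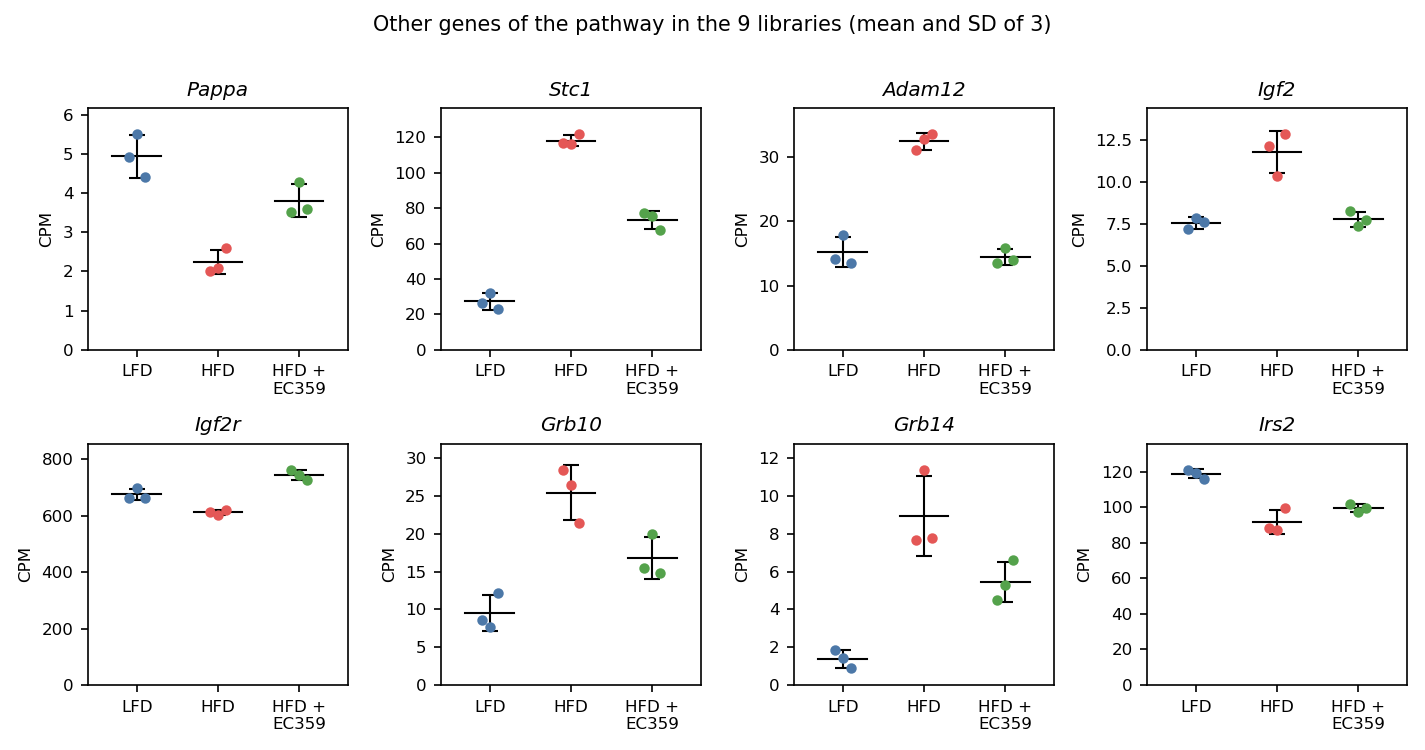
CPM (y axes, each from 0) of 8 further pathway genes in each of the 9 libraries, by group (x axes), with a horizontal line at the mean and bars for the SD of 3 libraries. Stc1, Adam12, Igf2, Grb10 and Grb14 are highest in HFD, Pappa is lowest there, and Igf2r is highest with EC359.

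Of 8 inhibitors of signaling at or below the receptors, 2 rose and 5 fell with HFD, and 3 fell with EC359. Grb10, which binds the activated receptors and blocks their kinase, measured 8.59, 7.69 and 12.2 CPM in LFD, 28.5, 26.5 and 21.4 CPM in HFD, and 15.5, 20.0 and 14.8 CPM with EC359. The 3 groups did not overlap. Grb10 rose with HFD by 1.43 (SE 0.153, quasi-likelihood adjusted p = 2.08e-09) and fell with EC359 by 0.61 (SE 0.122, quasi-likelihood adjusted p = 0.000255) in edgeR's quasi-likelihood test. Its relative Grb14 had 5 to 9 counts in the LFD libraries, 57 to 87 in HFD and 37 to 66 with EC359, and rose with HFD by 2.70 (SE 0.289, quasi-likelihood adjusted p = 2.09e-09). With EC359 it fell by 0.70 (adjusted p = 0.00545), but the call was lost in 5 of 18 alternatives, with adjusted p up to 0.0983: DESeq2, thinned counts, and the fits that left out HFD replicate 2 or either of replicates 1 and 2 of the EC359 group. Grb10 and Grb14 stayed above LFD with EC359, by 0.82 and 2.01 (quasi-likelihood adjusted p = 5.37e-05 and 1.55e-06). Socs3, a feedback inhibitor that STAT3 induces and that was named after its values were seen, fell with HFD by 0.40 and with EC359 by 0.34 (quasi-likelihood adjusted p = 9.82e-08 and 4.55e-06). The other 4 that fell with HFD were Ptpn1, Ptprf, Socs1 and Trib3, by 0.29 to 0.87. After GC and length correction the falls of Socs3 (-0.12), Ptpn1 (-0.11) and Socs1 (-0.10) with HFD no longer passed, while Grb10 (1.36) and Grb14 (2.72) still rose. Socs1 lost its call in 7 of 19 alternatives, 4 of which left out a library, namely replicate 1 or 2 of LFD, or replicate 1 or 3 of HFD.

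Irs2, the docking protein closest to Irs1, was also named after its values were seen. It measured 121, 119 and 116 CPM in LFD, 88.0, 87.1 and 99.4 CPM in HFD, and 102, 97.5 and 99.5 CPM with EC359, and fell with HFD by 0.38 (SE 0.0544, edgeR quasi-likelihood adjusted p = 6.68e-07). EC359 against HFD gave 0.12 and did not pass (adjusted p = 0.0791). Irs2 has a GC content of 63.4%, and the 341 tested genes within 2 GC points had a median of -0.30 with HFD. After GC and length correction its fall with HFD was lost (-0.08, adjusted p = 0.285), and it rose with EC359 by 0.32 (quasi-likelihood adjusted p = 1.15e-05). Per length and without that correction, the ratio of Irs1 to Irs2 was 0.587 to 0.66 in the LFD libraries, 0.986 to 1.14 in HFD and 0.712 to 0.803 with EC359, and the 3 groups did not overlap. Of the 8 adaptors tested beside Irs1, Irs2 included, 1 rose and 2 fell with HFD, and with EC359 none passed. Shc1, the most abundant of the 8 per length, changed by -0.03 in both comparisons and did not pass.

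In the growth hormone arm, which sets the output of IGF1 in the liver, 1 of 6 genes rose and 1 fell with HFD, and 2 rose and 1 fell with EC359. Its most abundant gene, the kinase Jak2, fell with HFD by 0.16 and with EC359 by 0.20 (quasi-likelihood adjusted p = 0.000519 and 9.35e-05). Ghr, the growth hormone receptor, was named after its values were seen. It measured 34.8, 46.2 and 38.9 CPM in LFD, 55.9, 53.4 and 58.2 CPM in HFD, and 92.8, 89.4 and 93.6 CPM with EC359, and the 3 groups did not overlap. Ghr rose with EC359 by 0.72 (SE 0.0651, quasi-likelihood adjusted p = 1.35e-10), and was over 2-fold in EC359 against LFD (1.19 on the log2 scale), though not after GC and length correction (0.76). Its rise of 0.47 with HFD was lost after GC and length correction (0.12, adjusted p = 0.205). Of the 2 tested mRNA-binding proteins of Igf2, 1 rose with HFD and the other fell with EC359. The more abundant per length, Igf2bp2, rose with HFD by 0.23 and did not pass with EC359 (-0.11, adjusted p = 0.0481, quasi-likelihood test).

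Below the docking proteins the changes were small and in both directions, and none of the tested genes was over 2-fold. Of 7 PI3K subunits, 2 rose and 1 fell with HFD, and none passed with EC359. The one that fell, Pik3r2, gave -0.18 with HFD (edgeR quasi-likelihood adjusted p = 0.00695) and 0.05 with EC359. Its fall was lost in 8 of 19 alternatives, 4 of which left out a library (replicate 1 or 3 of LFD, replicate 2 or 3 of HFD). After GC and length correction it gave 0.12 with HFD, and rose by 0.19 with EC359 (adjusted p = 0.00213). Of 5 lipid phosphatases, which oppose PI3K, 1 rose and 1 fell with HFD and 1 fell with EC359. Inppl1, the most abundant, did not pass in either (-0.002 and -0.12), but after GC and length correction it rose with HFD by 0.20 (adjusted p = 0.000272). Of 16 genes of AKT and mTOR, 5 rose and 3 fell with HFD, and 1 rose and 2 fell with EC359. Akt1, the most abundant of these per length, fell from 721 ± 31.4 CPM in LFD to 524 ± 6.44 in HFD and 458 ± 14.2 with EC359, by 0.46 and 0.20 on the log2 scale (quasi-likelihood adjusted p = 1.88e-12 and 7.21e-05). After GC and length correction these falls were 0.17 and 0.09, and the second no longer passed. None of the 3 tested FoxO factors, which AKT holds out of the nucleus, passed in either comparison, with Foxo3 at -0.12 and -0.13, but after GC and length correction Foxo3 rose with HFD (0.17, adjusted p = 0.00445). Of 7 FoxO target genes tested, 3 rose and none fell with HFD, and 1 rose and 2 fell with EC359. Sesn3 rose with HFD by 0.51 and fell with EC359 by 0.17 (quasi-likelihood adjusted p = 2.18e-10 and 0.00438). The second call was lost in 8 of 19 alternatives, 5 of them fits that left out HFD replicate 1, HFD replicate 3 or any 1 EC359 library.

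**Figure D5:**
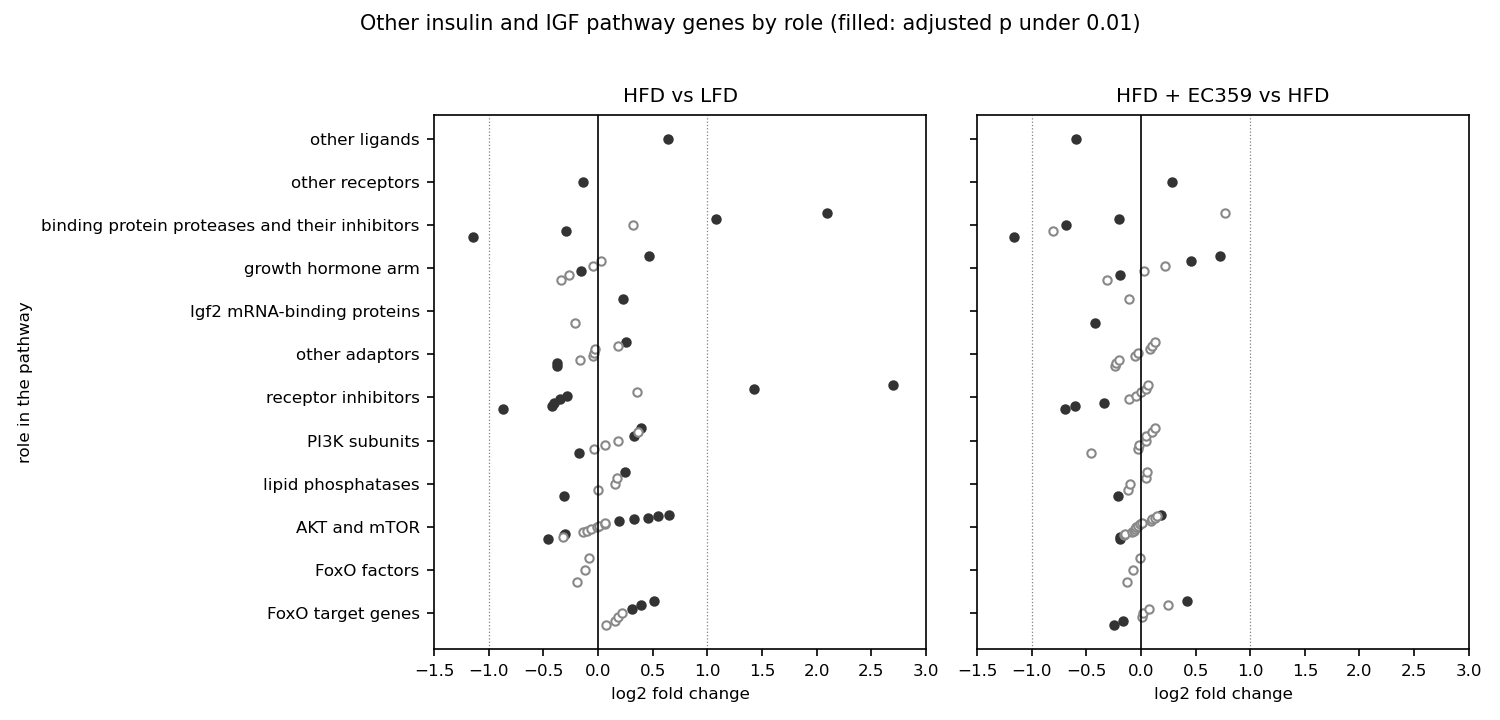
Log2 fold change (x axes) of the 69 tested pathway genes other than the 10, in rows by role (y axis), for HFD against LFD and HFD + EC359 against HFD. Filled points passed the test, and dotted lines mark 2-fold. Stc1, Grb14, Grb10 and Adam12 lie to the right of the line on the left panel and Pappa to its left, and Adam12 alone lies past the line on the right panel.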

How the data were processed

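Poly(A) RNA of whole 4T1 tumors was sequenced as stranded paired reads. The authors deposited, per the file headers, expected counts per gene from featureCounts 1.5.0-p1 on mm9, stranded, with ambiguous and multi-mapped pairs counted in fractions. The submitters' notes name HISAT2 2.1.0 as a tool, and the methods name TopHat2 and HTSeq. The counts were rounded to whole numbers here (1.19% to 3.55% of genes per library were fractional). Genes passing edgeR's filterByExpr by group were scaled with TMM factors and fitted in 1 quasi-likelihood model of the 3 groups (edgeR 4.0.16, R 4.3.3). The standard error comes from that fit. The call was an adjusted p under 0.01, and the methods' threshold added a fold over 2. Alternatives were RLE factors, library totals, DESeq2 1.42.0, other count filters, a looser adjusted p (0.05), fits on only the 6 libraries compared, a replicate block, removal of the GC and length trend, thinned counts and each library left out. The steps were tested on simulated data. Members and lists were chosen with earlier results of these data known. Beside all 10 members, genes were named if over 2-fold in HFD against LFD or HFD + EC359 against HFD, else as the most abundant of their role per length, with the 3 genes nearest in pattern to a member over 2-fold. Exceptions are marked where they occur, and the inhibitors listed together and the marker genes only state a range.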

Additional observations from a re-analysis of the deposited data

How the results depend on the processing

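For the 9 tested genes in the 3 comparisons, 493 of 513 alternative values kept their direction and their side of the threshold, 4 lost a call, 7 gained one and 9 changed sign, none of these while past the threshold. The sign changes were Insr with the GC and length trend removed (-0.035 for HFD against LFD and -0.10 for EC359 against LFD), Igf1r for EC359 against HFD with library totals (0.0125), and Igfbp6 for EC359 against HFD with the trend removed (0.00909) and in thinned counts (0.10). Leaving out 1 library, Igfbp6 for EC359 against HFD ran from -0.0916 to 0.0397, Igfbp6 for EC359 against LFD from -0.0102 to 0.12 and Irs1 for EC359 against LFD from -0.00546 to 0.0546. The number of members over 2-fold was 0 for HFD against LFD with the trend removed and 0 to 1 without 1 library (0 without LFD replicate 1 or 3). For EC359 against LFD it was 2 in DESeq2, 2 with all genes of at least 1 count, where Igfbp2 enters, and 0 with the trend removed. Pathway genes called for EC359 against HFD were 30 at an adjusted p under 0.05 against 19, and 12 (without HFD + EC359 replicate 2) to 22 without 1 library. At 0.05, 3545 of all genes were called there, against 2313. With at least 10 counts in every library, which tests fewer genes, those over 2-fold were 356, 213 and 418 in the 3 comparisons against 761, 462 and 680, and with the trend removed 427 for EC359 against LFD. The median of all genes moved by less than 0.1 on the log2 scale under each scaling. Same-numbered libraries of different groups did not deviate together (r -0.0296 to 0.0169 over 9 pairs), so no pairing by number was seen. With the replicate block 6, 3 and 5 members were called in the 3 comparisons, as without it, and 35, 18 and 40 pathway genes. The cause of these shifts was not tested. Among the 10 genes, counts per library were lowest in Igfbp2 (0 to 7) and Igfbp6 (25 to 64).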
